A study of Mus musculus with 6 samples.

Results

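The genes followed here in mouse left ventricle encode parts of the stretch-sensing machinery of heart muscle: *Fhl1*, *Fhl2*, *Ankrd1*, *Ankrd23*, *Csrp3*, *Myot*, *Xirp1* and *Xirp2*. They were chosen by name, and all probes annotated to these symbols were taken, which gave 16 of 45281 probes on the array. The 16 probes covered 7 of the 8 genes, since no probe was annotated to the symbol *Xirp1* in the table used here. Of the 16, 13 probes passed the filter (detected, at a detection p under 0.01, on 2 or more arrays), 12 were detected on all 6 arrays and 3 on none. All 7 genes kept at least 1 probe and stood among 9577 named genes tested.

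The ventricles came from male C57BL/6 mice that had surgery at 6 to 8 weeks of age and were examined 3 weeks later, as the labels state; the study's text gives a longer time for its transgenic mice. The surgery was either transverse aortic constriction (TAC), in which a band narrows the aorta and the left ventricle must pump against higher pressure, or a sham operation. The 6 arrays fell by label into 2 *Kdm3a*-Tg (Tg) TAC, 2 wild-type (WT) TAC, 1 Tg Sham and 1 WT Sham, each from 1 animal. Tg mice carried a Flag-tagged cDNA of *Kdm3a*, a histone H3 lysine 9 demethylase, behind the αMHC promoter, which is active in heart muscle cells; the study made more than 1 such line and names the line behind its main results, while the labels of these arrays name none. Animals 446 and 18 were Tg TAC replicates 1 and 2, animals 445 and 17 were WT TAC replicates 1 and 2, and the shams were animals 454 (Tg) and 444 (WT).

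Detected probes numbered between 15643 and 16492 per array, and the number of arrays limits the precision. *Kdm3a* probe ILMN_3118169 read 34642 and 33540 in Tg TAC, 30614 and 229 in WT TAC, 247 in Tg Sham and 341 in WT Sham. The library labelled WT TAC replicate 1 and the library labelled Tg Sham thus went against their genotype label on this probe. The other 3 *Kdm3a* probes showed no such step, and where any of the probes lies relative to the transgene was not known here. Directions that rest on those 2 libraries rest on labels this probe goes against. Heart muscle markers were high on every array, with sums of 184000 to 212000 for the 9 measured of 10 listed. All marker sums given here add normalized intensities, not log2 values.

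The Z-disc anchors the thin filaments of neighbouring sarcomeres and, with the spring protein titin, is a place where heart muscle is thought to sense stretch. LIM-domain proteins (*Fhl1*, *Fhl2*, *Csrp3*) and muscle ankyrin repeat proteins (*Ankrd1*, *Ankrd23*) bind titin or its partners there, and some also enter the nucleus. *Myot* encodes myotilin, which binds alpha-actinin and filamin C at the Z-disc. *Xirp2* and *Xirp1* encode Xin repeat proteins that bind actin, mainly at the intercalated discs that join heart muscle cells.

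Upstream sequence was read for the members from RefSeq (GRCm38.p6), to show which share short sites of factors known from muscle genes. The table held 10 windows for 6 member genes, each cut to the 250 bases before an annotated start. Both strands were searched for the CArG box of serum response factor, the MEF2 site, and the M-CAT element of TEAD factors (CATTCC, shown as its reverse complement where it lay on the other strand). A CArG box lay in 3 of the 10 windows and in 1.47% of 32851 windows of all genes, a MEF2 site in 2 of 10 and 2.92%, and M-CAT in 2 of 10 and 12.6%. *Csrp3* had none of the 3 in either window. The second window of *Fhl1* (chrX:56786277-56786526) and that of *Ankrd23* (chr1:36536557-36536806) also held none. Both *Fhl2* windows held a CArG box, so the windows with one came from *Fhl1* and *Fhl2* only. Shown 5′ to 3′ with matches in capitals are the windows of *Fhl1* (chrX:56779433-56779682, plus strand), *Fhl2* (chr1:43163962-43164211, minus strand), *Ankrd1* (chr19:36119845-36120094, minus strand), *Ankrd23* (chr1:36535740-36535989, minus strand) and *Xirp2* (chr2:67445752-67446001, plus strand).
Fhl1: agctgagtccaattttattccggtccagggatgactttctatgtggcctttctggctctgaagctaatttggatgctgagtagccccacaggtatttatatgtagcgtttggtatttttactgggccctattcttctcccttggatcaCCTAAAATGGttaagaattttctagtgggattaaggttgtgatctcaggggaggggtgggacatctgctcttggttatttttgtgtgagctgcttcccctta
Fhl2: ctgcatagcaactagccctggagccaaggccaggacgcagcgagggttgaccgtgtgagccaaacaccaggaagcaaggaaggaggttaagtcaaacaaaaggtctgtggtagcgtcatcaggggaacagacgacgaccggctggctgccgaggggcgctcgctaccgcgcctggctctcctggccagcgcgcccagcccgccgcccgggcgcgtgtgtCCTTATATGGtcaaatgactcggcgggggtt
Ankrd1: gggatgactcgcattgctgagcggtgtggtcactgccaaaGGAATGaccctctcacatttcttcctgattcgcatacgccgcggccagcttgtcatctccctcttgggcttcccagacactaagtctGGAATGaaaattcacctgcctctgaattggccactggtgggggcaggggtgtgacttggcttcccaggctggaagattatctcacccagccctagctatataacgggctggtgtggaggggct
Ankrd23: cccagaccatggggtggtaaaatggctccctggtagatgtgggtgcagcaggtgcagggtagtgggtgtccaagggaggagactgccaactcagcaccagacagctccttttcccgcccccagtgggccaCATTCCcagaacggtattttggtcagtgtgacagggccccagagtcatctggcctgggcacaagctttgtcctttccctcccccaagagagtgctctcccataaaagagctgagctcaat
Xirp2: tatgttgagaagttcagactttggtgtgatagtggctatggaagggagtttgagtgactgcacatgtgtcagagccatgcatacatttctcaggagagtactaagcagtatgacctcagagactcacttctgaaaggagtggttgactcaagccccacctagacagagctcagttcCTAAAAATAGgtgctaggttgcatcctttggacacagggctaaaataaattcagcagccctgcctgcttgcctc
In the windows shown, the CArG box began 102 bases before the *Fhl1* start and 31 bases before the *Fhl2* start. A second *Fhl2* window (chr1:43196762-43197011) held a CArG box at 96 and a MEF2 site at 31. The M-CAT matches began 210 and 123 bases before the *Ankrd1* start and 120 before the *Ankrd23* start, and the MEF2 site began 74 bases before the *Xirp2* start. A match is a string of letters and not a bound site. Windows of *Xirp1* and *Myot* are not shown.

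*Fhl1* was highest in the 2 TAC replicate 1 libraries. The protein it encodes is a LIM-only protein that binds the elastic part of titin and takes part in the growth response of the loaded mouse heart. Its brighter probe, ILMN_2713285, had raw intensities of 8875 and 3599 in Tg TAC, 7230 and 2597 in WT TAC, 3027 in Tg Sham and 3449 in WT Sham, giving replicate 1 before replicate 2. In normalized log2 intensity, the scale used from here on, these were 13.14 and 11.96 in Tg TAC, 12.57 and 11.32 in WT TAC, 11.69 in Tg Sham and 11.53 in WT Sham. The other 3 TAC arrays lay above both shams, and WT TAC replicate 2 lay below both, so the groups overlapped. Those 3 were also the arrays on which *Kdm3a* probe ILMN_3118169 read high, and all arrays low on that probe had lower *Fhl1*. That split was not tested, and surgery and the step of this probe cannot be told apart in it. Tg TAC replicate 1 was 2.73-fold above Tg Sham and the library labelled WT TAC replicate 1 was 2.07-fold above WT Sham. Replicate 2 was 1.21-fold above its sham in Tg TAC and 1.16-fold below it in WT TAC. A second probe, ILMN_3117381, gave 12.99 and 11.83 in Tg TAC, 12.47 and 11.22 in WT TAC, 11.54 in Tg Sham and 11.52 in WT Sham, the same order of TAC arrays. The third probe, ILMN_2437254, was detected on no array.

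Over all 6 arrays *Fhl1* averaged 12.25 ± 0.79 in TAC (SD, n = 4) and 11.61 ± 0.12 in sham (n = 2), 0.64 ± 0.43 SE higher in TAC on the log2 scale, which is not past the threshold (limma adjusted p = 0.83, 95% interval -0.38 to 1.66). Among all genes the absolute size of this difference stood at percentile 97.4. Limma called 0 of 9577 genes in this comparison (0%), with 559 genes (5.84%) at an unadjusted p under 0.05, and so 0 of the 7 members. Without both TAC replicate 2 libraries, animals 445 and 446 against 444 and 454, *Fhl1* rose by 1.25 ± 0.12 SE in TAC against sham (limma adjusted p = 3.5e-06). That fit has 1 residual degree of freedom and called 12.2% of all genes, so its p-values rest mostly on the spread borrowed across genes (prior degrees of freedom 15.7, against 3.72 over 6 arrays). Both TAC libraries of that fit read high and both shams low on *Kdm3a* probe ILMN_3118169, so surgery and this step cannot be told apart there. Leaving out any 1 array gave 0.36 (without Tg TAC replicate 1) to 0.94 (without WT TAC replicate 2). Without the 2 libraries that went against their label no Tg sham is left, so the value is WT TAC replicate 2 minus WT Sham, 1 array against 1, at -0.21 with no replicate of either.

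The genotype label did not separate *Fhl1* beyond the spread of its groups. By group mean the order was Tg TAC (12.55 ± 0.84, SD, n = 2), WT TAC (11.94 ± 0.89, n = 2), Tg Sham (11.69) and WT Sham (11.53), and each neighbour in that order differed by less than the SD of the TAC groups. Each sham group holds 1 array, and the fit assumes that it varies like the TAC groups. Tg TAC exceeded WT TAC by 0.61 ± 0.54 SE (limma adjusted p = 0.80), with 0 genes called (0%) and 7.28% at an unadjusted p under 0.05. Replicate by replicate, Tg TAC was above WT TAC by 0.57 in replicate 1 and by 0.65 in replicate 2. With replicate number added to the model, Tg TAC exceeded WT TAC by 0.61 ± 0.10 SE (limma adjusted p = 0.078), still not past the threshold. The labels do not say that replicate numbers pair the mice. The difference between TAC and sham was 0.86 ± 0.67 SE in Tg and 0.42 ± 0.67 SE in WT, and the interaction of genotype and surgery was 0.44 ± 0.94 SE (adjusted p = 1 for all 3). In each of these 3 comparisons limma called 0 genes (0%), with 2.91%, 1.74% and 0.919% at an unadjusted p under 0.05.

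**Figure D1:**
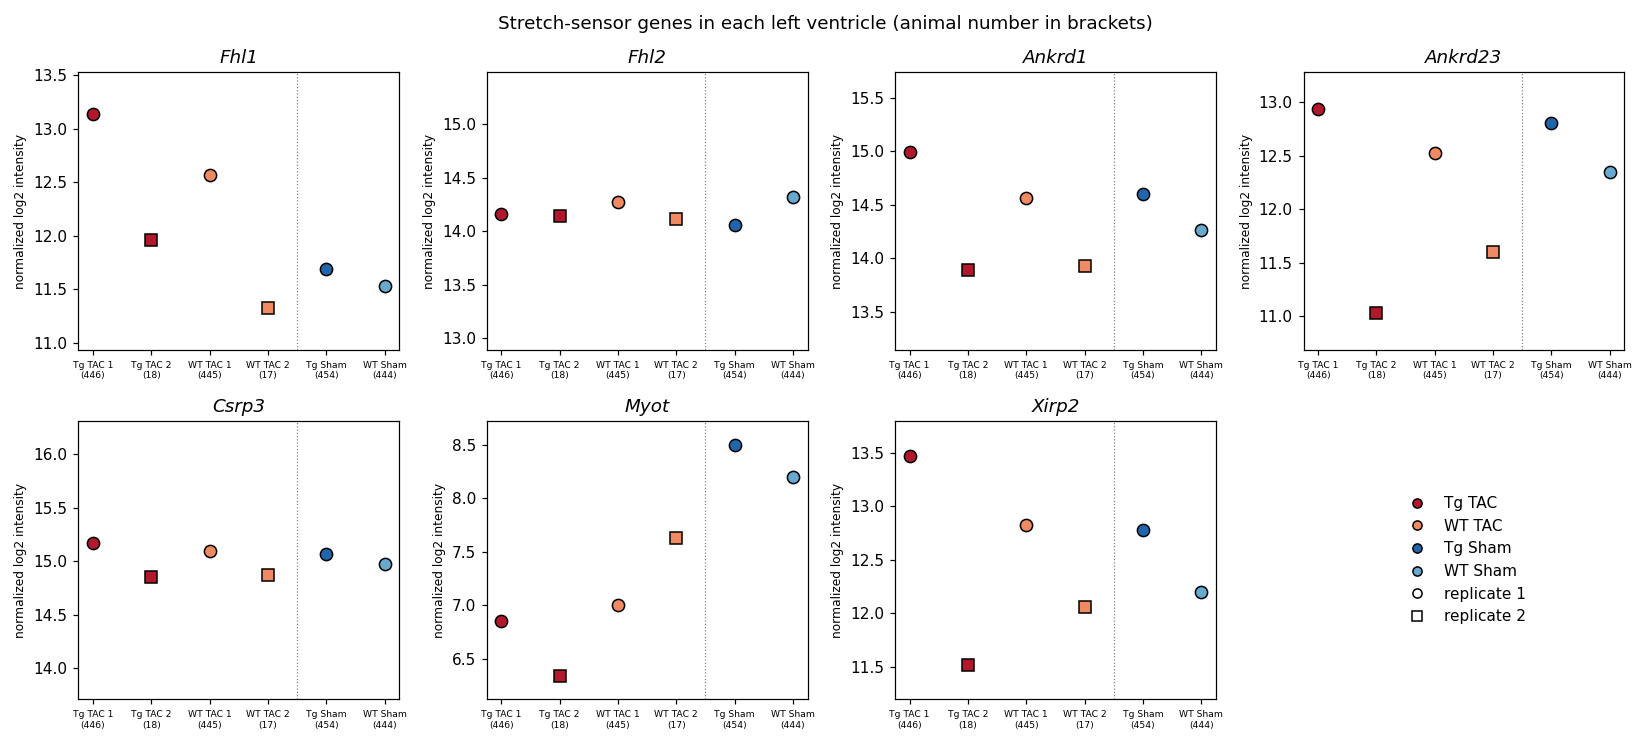
Normalized log2 intensity (vertical axes, each spanning the same range) of the 7 measured genes in each of the 6 ventricles, with the Tg TAC arrays at the left, followed by WT TAC, then Tg Sham and then WT Sham, circles for replicate 1 and squares for replicate 2. *Fhl1* ranges from 11.32 to 13.14 with both replicate 1 TAC arrays on top, *Fhl2* and *Csrp3* are nearly level, and *Myot* is lower in all 4 TAC arrays than in both shams.

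*Fhl2*, the close relative of *Fhl1* that links signalling proteins and metabolic enzymes to titin, was nearly level. Its brighter probe, ILMN_2770386, gave 14.16 and 14.14 in Tg TAC, 14.27 and 14.12 in WT TAC, 14.06 in Tg Sham and 14.32 in WT Sham. The whole range was 0.27, against 1.83 for *Fhl1*, and its SD over the arrays stood at percentile 5.16 of all genes, against 97.1. TAC differed from sham by -0.02 ± 0.10 SE (limma adjusted p = 0.98), with a 95% interval of -0.27 to 0.23. The second probe, ILMN_1213912, read 11.80 and 11.73 in Tg TAC, 11.75 and 11.60 in WT TAC, 11.90 in Tg Sham and 12.01 in WT Sham, so that all 4 TAC arrays lay below both shams on that probe, by 0.10 to 0.40 against the sham of the same label.

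*Ankrd1*, *Ankrd23* and *Xirp2* shared one pattern, higher in both replicate 1 TAC arrays than in both replicate 2 arrays, which lay below both shams. *Ankrd1* (CARP) is a muscle ankyrin repeat protein that binds titin, acts in the nucleus and is a common marker of heart muscle stress. Probe ILMN_2950286 gave 14.99 and 13.89 in Tg TAC, 14.56 and 13.93 in WT TAC, 14.60 in Tg Sham and 14.26 in WT Sham. Both replicate 2 arrays lay below both shams, while of the replicate 1 arrays only that of Tg TAC lay above both. The second probe, ILMN_2625451, spread further, with 14.53 and 12.99 in Tg TAC, 13.76 and 12.90 in WT TAC, 13.75 in Tg Sham and 13.54 in WT Sham. TAC differed from sham by -0.08 ± 0.31 SE (limma adjusted p = 0.97, 95% interval -0.83 to 0.66). Without both TAC replicate 2 libraries the difference was 0.35 ± 0.10 SE (adjusted p = 0.028, in the fit that called 12.2% of genes).

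*Ankrd23* (DARP), a relative of *Ankrd1* that also binds titin, had a wider range of 1.91. It gave 12.94 and 11.03 in Tg TAC, 12.53 and 11.60 in WT TAC, 12.81 in Tg Sham and 12.35 in WT Sham. Tg TAC replicate 2 was 3.43-fold below Tg Sham and WT TAC replicate 2 was 1.69-fold below WT Sham, while replicate 1 was 1.09-fold and 1.13-fold above the same shams. The difference between TAC and sham was -0.56 ± 0.52 SE over all arrays (limma adjusted p = 0.88) and 0.15 ± 0.10 SE without both TAC replicate 2 libraries (adjusted p = 0.39).

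*Xirp2* had the widest split within Tg TAC among the members (1.95, next to 1.91 for *Ankrd23*), while within WT TAC that of *Fhl1* was wider (1.26, against 0.76). Its main probe, ILMN_2497657, gave 13.47 and 11.52 in Tg TAC, 12.82 and 12.06 in WT TAC, 12.78 in Tg Sham and 12.20 in WT Sham. Both replicate 1 arrays lay above both shams and both replicate 2 arrays below both, and within Tg TAC the replicates differed 3.86-fold. The difference between TAC and sham was -0.03 ± 0.51 SE over all arrays (limma adjusted p = 1). It was 0.65 ± 0.10 SE without both TAC replicate 2 libraries (adjusted p = 5e-04, again in the fit that called 12.2% of genes). The dim probe ILMN_1228343, detected on all arrays but Tg TAC replicate 2, gave 6.04 and 4.89 in Tg TAC, and 6.11 and 5.51 in WT TAC. It read 5.75 in Tg Sham and 5.50 in WT Sham, so WT TAC replicate 2 was not below both shams on it. Probe ILMN_2449798 was detected on no array.

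*Csrp3* (muscle LIM protein), whose loss causes dilated cardiomyopathy in mice, followed the same order with a small range of 0.32. Probe ILMN_2789650 gave 15.17 and 14.85 in Tg TAC, 15.10 and 14.87 in WT TAC, 15.07 in Tg Sham and 14.98 in WT Sham. Its SD over the arrays stood at percentile 11.4 of all genes. TAC differed from sham by -0.02 ± 0.13 SE (limma adjusted p = 0.98, 95% interval -0.32 to 0.28). In all 3 *Csrp3* probes both replicate 2 arrays lay below the sham of their label, by 0.06 to 0.22. On probe ILMN_2789651 Tg TAC replicate 1 also lay below Tg Sham, at a difference of -0.09.

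*Myot* stood apart, lower in all 4 TAC arrays than in both shams. The only detected probe, ILMN_2444217, had raw intensities of 212 and 163 in Tg TAC, 251 and 281 in WT TAC, 408 in Tg Sham and 417 in WT Sham. In log2 these were 6.85 and 6.34 in Tg TAC, 7.00 and 7.63 in WT TAC, 8.50 in Tg Sham and 8.20 in WT Sham. The groups did not overlap, a pattern that 3.99% of all genes shared. All TAC arrays but WT TAC replicate 2 also read high on *Kdm3a* probe ILMN_3118169. Each of them was lower for *Myot* than every array low on that probe. That split was not tested, and surgery and the step of this probe cannot be told apart in it. The signal was dim, against array medians of 113 to 120 over all probes, but above background at a detection p of 0 on every array. TAC averaged 6.96 ± 0.53 (SD, n = 4) and sham 8.35 ± 0.21 (n = 2), a log2 difference of -1.39 ± 0.31 SE, or 2.63-fold lower. At an unadjusted p of 0.0031 it did not pass after adjustment over all genes (limma adjusted p = 0.82), and the absolute difference stood at percentile 99.7 of all genes. The difference was smaller on the authors' quantile-normalized table (-0.94) and with an offset of 50 (-1.17), and was -1.37 with median scaling. Leaving out any 1 array kept it between -1.90 (without WT Sham) and -0.88 (without Tg Sham), values that each rest on the other sham alone. Without both TAC replicate 2 libraries *Myot* fell by 1.42 ± 0.17 SE (adjusted p = 4.6e-05, in the fit that called 12.2% of genes), and without the 2 libraries that went against their label only WT TAC replicate 2 minus WT Sham is left, 1 array against 1, at -0.57.

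Both Tg TAC arrays also lay below both WT TAC arrays for *Myot*, an order that 18.8% of all genes shared. Tg TAC differed from WT TAC by -0.72 ± 0.31 SE (limma unadjusted p = 0.064, adjusted p = 0.69). TAC differed from sham by -1.90 ± 0.38 SE in Tg and by -0.88 ± 0.38 SE in WT (adjusted p = 1 for both). The interaction was -1.02 ± 0.54 SE (adjusted p = 1), so a difference between the genotype labels was not detectable with these arrays. Skeletal muscle markers, of which 3 of 10 listed were measured and the defining *Myh1*, *Myh2*, *Myh4*, *Actn3* and *Myod1* were not, summed to 650 and 314 in Tg TAC, 835 and 319 in WT TAC, 677 in Tg Sham and 550 in WT Sham. That sum was low in the replicate 2 arrays and did not follow the order of *Myot*. It was low there through *Mybpc2*, at 9.09 and 7.07 in Tg TAC and 9.41 and 7.28 in WT TAC. The dim *Tnni2* was not low there, at 5.52 and 6.99 in Tg TAC and 6.68 and 6.73 in WT TAC, and the dim *Mylpf* was nearly level. In whole ventricle, fewer cells of a type and less RNA per cell cannot be told apart.

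**Figure D2:**
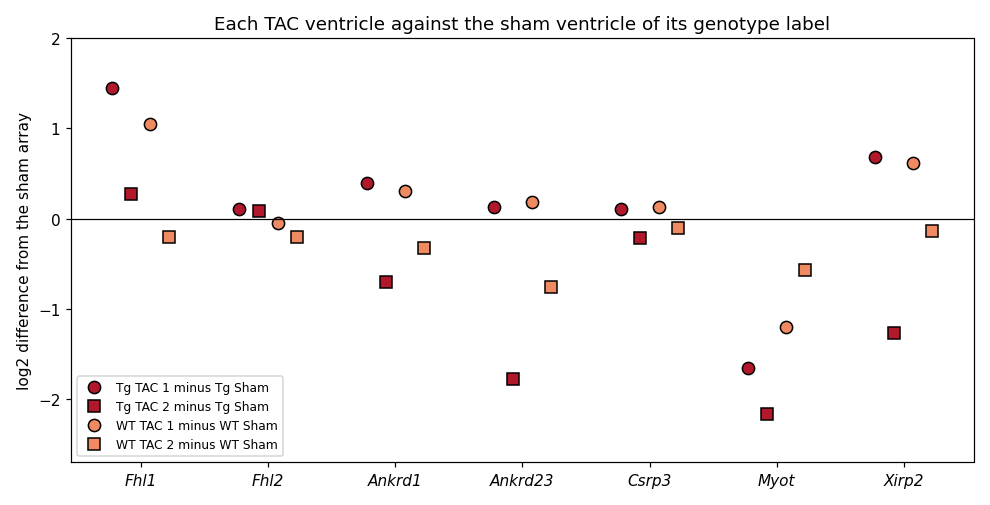
Log2 difference of each TAC ventricle from the single sham ventricle of its genotype label (vertical axis), for the 7 genes (horizontal axis), with Tg TAC in red, WT TAC in orange, circles for replicate 1 and squares for replicate 2. Circles lie above 0 for *Fhl1*, *Ankrd1*, *Ankrd23*, *Csrp3* and *Xirp2* while most squares of these genes lie below it, and all 4 *Myot* points lie below 0.

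Across the members, 6 of the 7 measured genes, all but *Myot*, had both replicate 1 TAC arrays above both replicate 2 arrays, an order that 20.6% of all genes shared. Both replicate 2 arrays lay below both shams for 5 genes (14.9% of all genes), and both replicate 1 arrays lay above both shams for *Fhl1*, *Csrp3* and *Xirp2* (22.1%). *Csrp3* and *Xirp2* did both (3.44%). Genes that move together are not independent, and the labels name no batch beyond the animal numbers. In no member did all 4 TAC arrays lie above both shams (6.62% of all genes). Over the 7 members the median difference between TAC and sham was -0.03, beside 0.03 for all genes. Per array it was 0.13 and -0.70 for Tg TAC replicates 1 and 2 and 0.18 and -0.21 for WT TAC replicates 1 and 2, beside medians of 0.00 to 0.06 for all genes.

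At baseline no member differed more than 2-fold between Tg Sham and WT Sham (2.56% of all genes did). The differences were 0.16 for *Fhl1*, 0.34 for *Ankrd1*, 0.45 for *Ankrd23*, 0.59 for *Xirp2*, 0.30 for *Myot*, 0.09 for *Csrp3* and -0.27 for *Fhl2*. With 1 array on each side they have no replicate check. The library labelled Tg Sham is also one of the 2 that went against their label.

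**Figure D3:**
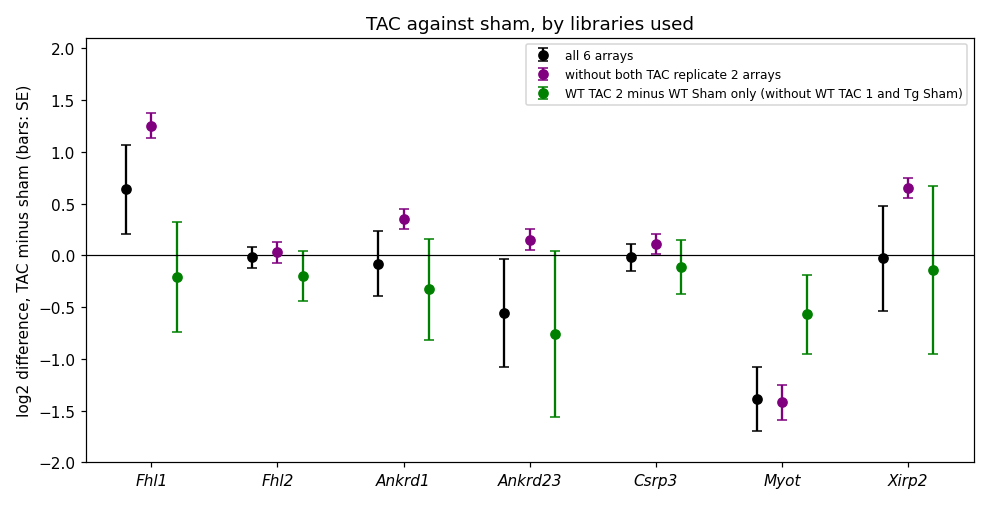
Log2 difference between TAC and sham (vertical axis, points with SE bars) for the 7 genes, fitted over both genotype labels with all 6 arrays (black) or without both TAC replicate 2 arrays (purple). The green points leave out the libraries labelled WT TAC replicate 1 and Tg Sham and are WT TAC replicate 2 minus WT Sham alone, with an SE taken from the spread of the 2 Tg TAC arrays and of all genes. *Fhl1* is 0.64, 1.25 and -0.21 in black, purple and green, and *Myot* is -1.39, -1.42 and -0.57.

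Correlations over the 6 arrays, which describe shared ups and downs of 6 libraries in 4 groups and carry no test, split the members. *Ankrd1*, *Ankrd23*, *Csrp3* and *Xirp2* correlated with each other at Pearson's r of 0.92 to 0.98. *Fhl1* correlated with *Ankrd1* at 0.76, with *Csrp3* at 0.75, with *Xirp2* at 0.71 and with *Ankrd23* at 0.47. *Fhl2* stayed between -0.04 and 0.14 with every other member, and *Myot* ran against *Fhl1* at -0.58.

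The genes whose pattern was most like *Fhl1*, among 1787 genes detected on all arrays with at least 50% of its SD, were *Jpt1* (r = 0.996), the metalloproteinase inhibitor *Timp1* (0.992), the collagen chain gene *Col1a2* (0.991), the metalloproteinase *Mmp23* (0.99) and *Igfbp6* (0.989), which encodes a binding protein of insulin-like growth factors. *Timp1* was 10.17 and 7.94 in Tg TAC, 9.46 and 6.42 in WT TAC, 7.22 in Tg Sham and 7.10 in WT Sham, a wider swing in the same order of arrays. In all, 36 of the 1787 had r above 0.95. Fibroblast markers, 9 of 10 measured with *Postn* not measured, summed to 22000 and 17700 in Tg TAC, 24500 and 18200 in WT TAC, 18400 in Tg Sham and 23300 in WT Sham. Macrophage markers, 7 of 9 measured, summed to 6010 and 4120 in Tg TAC, 6900 and 4440 in WT TAC, 4120 in Tg Sham and 5090 in WT Sham. Both sums were higher in replicate 1 than in replicate 2 of each TAC group. Most of the fibroblast sum was *Dcn*. In log2 *Dcn* was 13.95 and 13.81 in Tg TAC, 14.13 and 13.79 in WT TAC, 13.83 in Tg Sham and 14.20 in WT Sham. Smooth muscle and pericyte markers (6 of 7 measured) summed to 23400 and 19100 in Tg TAC, 19500 and 13200 in WT TAC, 18800 in Tg Sham and 11400 in WT Sham, and endothelial markers (6 of 8) to 12800 and 9400 in Tg TAC, 12000 and 10500 in WT TAC, 13200 in Tg Sham and 11400 in WT Sham. These too were higher in replicate 1, while the heart muscle marker sum was lower there, with 190000 and 212000 in Tg TAC, 184000 and 204000 in WT TAC, 208000 in Tg Sham and 200000 in WT Sham. In the smooth muscle sum, the higher Tg TAC replicate 1 value came mainly from *Des*, which is also listed as a Z-disc partner. *Des* was 13.79 and 13.05 in Tg TAC, where *Acta2* was 12.98 and 13.23. In WT TAC it came mainly from *Acta2*, at 13.23 and 11.77, with *Des* at 13.01 and 12.99. The part of these cell types in the *Fhl1* values was not tested.

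**Figure D4:**
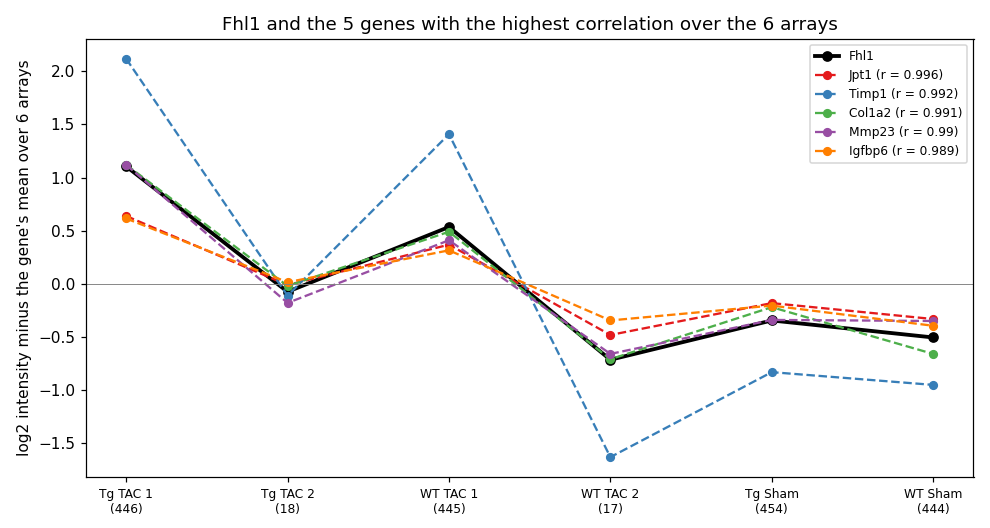
Log2 intensity minus each gene's own mean (vertical axis) on the 6 arrays for *Fhl1* (black) and the 5 genes with the highest correlation to it (colours), with lines that only guide the eye. All 6 genes are highest in Tg TAC replicate 1 with WT TAC replicate 1 next, and *Timp1* has the widest swing, 6.42 to 10.17 before centring.

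*Flnc*, which encodes the actin crosslinker filamin C, was near the top for a pair of members, with r of 0.979 to *Ankrd23* and 0.971 to *Xirp2*. It gave 12.53 and 11.24 in Tg TAC, 12.30 and 11.69 in WT TAC, 12.28 in Tg Sham and 11.96 in WT Sham. The collagen-binding integrin gene *Itga11* was nearest to *Xirp2* (0.98), *Ccdc68* was second to *Ankrd23* (0.972), and *Plscr1* (0.993) and *Mical3* (0.984) were nearest to *Ankrd1*. *Gipc1* (0.991) and *Cox19* (0.987) were nearest to *Csrp3*, and *Ammecr1l* and *Csrnp1* (0.991 each) to *Fhl2*, whose small range many genes met. For *Myot* the nearest were *Tmem117* (0.941) and the mitochondrial fusion gene *Opa1* (0.934), and 0 genes passed 0.95.

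For the wider Z-disc and titin set the order by replicate was like that of the members, with smaller differences. The median relative to the sham of the same label was 0.14 and -0.20 for Tg TAC replicates 1 and 2 and 0.02 and -0.15 for WT TAC replicates 1 and 2, beside 0.00 to 0.06 for all genes, and 21 of 27 genes were lower in Tg TAC replicate 2 and 18 of 27 in WT TAC replicate 2. Of 34 listed partners 27 were measured, 10 higher and 17 lower in TAC than in sham, with a median of -0.04 beside 0.03 for all genes and 0 called (1 at an unadjusted p under 0.05). By the size of their differences the first were *Csrp2*, a LIM protein related to *Csrp3* (0.77 ± 0.31 SE, adjusted p = 0.82), the intermediate filament gene *Des* (0.32), and the muscle RING-finger genes *Trim63* (-0.31) and *Trim54* (0.29). *Csrp2* gave 10.65 and 10.56 in Tg TAC, 10.46 and 9.35 in WT TAC, 9.53 in Tg Sham and 9.45 in WT Sham. So 3 TAC arrays lay above both shams and WT TAC replicate 2 below both, as for *Fhl1*. The same 3 arrays read high on *Kdm3a* probe ILMN_3118169, and surgery and that step cannot be told apart here. Unlike *Fhl1*, *Csrp2* hardly differed between the Tg TAC replicates. *Ttn* (0.05) and *Actn2* (0.00), the scaffold the members bind to, were among the least different.

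Costamere and integrin linkage genes, which tie the Z-disc to the membrane and matrix, were higher for 10 and lower for 5 of 15 measured of 20 listed, with a median of 0.09 and 0 called (2 at an unadjusted p under 0.05). The largest differences were those of plakoglobin *Jup* (-0.59 ± 0.24 SE), zyxin *Zyx* (0.45) and the talins *Tln2* (0.38 ± 0.15 SE) and *Tln1* (-0.37). *Zyx*, which is recruited to stretched actin, read 12.42 and 11.63 in Tg TAC, 12.21 and 10.90 in WT TAC, 11.12 in Tg Sham and 11.56 in WT Sham, again with WT TAC replicate 2 below both shams. It too was higher on every array high on *Kdm3a* probe ILMN_3118169 than on the others.

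The 15 load-responsive heart muscle genes, all measured, were split by replicate like the members. Their median relative to the sham of the same label was 0.41 and -1.02 for Tg TAC replicates 1 and 2 and 0.34 and -0.56 for WT TAC replicates 1 and 2. Over all arrays 4 were higher and 11 lower in TAC than in sham, with a median of -0.09 and 0 called (1 at an unadjusted p under 0.05). That median was 0.20 without Tg TAC replicate 2, -0.44 without Tg TAC replicate 1 and 0.47 without both TAC replicate 2 libraries. The largest differences were those of *Acta1* (-2.25 ± 1.47 SE), *Atf3* (-1.37 ± 0.53 SE), *Nupr1* (0.56) and *Myh7* (-0.47). *Acta1*, skeletal actin of the fetal gene programme, was 13.66 and 8.32 in Tg TAC, 14.10 and 11.73 in WT TAC, 14.53 in Tg Sham and 13.88 in WT Sham. The natriuretic peptide gene *Nppb*, a marker of wall stress, was 14.72 and 12.23 in Tg TAC, 14.08 and 12.83 in WT TAC, 13.87 in Tg Sham and 13.76 in WT Sham. Both TAC replicate 2 arrays thus lay below both shams for these stress genes too, as they did for *Ankrd1*, *Ankrd23*, *Csrp3* and *Xirp2*. Atrial markers, 3 of 6 measured with *Myl7*, *Sln* and *Bmp10* not measured, summed to 1160 and 886 in Tg TAC, 853 and 726 in WT TAC, 649 in Tg Sham and 650 in WT Sham, and their part in these values was not tested.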

How the data were processed

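Ventricular RNA was labelled with biotin after amplification and read on 6 Illumina bead arrays, 1 for each animal. The deposited intensity values are the authors' probe summaries, not normalized, and the submitters' processing notes name GenomeStudio 2011.1. The authors deposited a detection p-value beside each of them. A table of intensity that the authors had quantile normalized was also deposited and served only as an alternative. The platform table gave 1 symbol to 34885 of 45281 probes, several to 18 and none to 10378.

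Raw values were corrected by normexp in limma 3.58.1 (R 4.3.3), which took the background level from the detection p-values. After an offset of 16, log2 values were quantile normalized. The filter (detection p under 0.01 on 2 or more arrays) left 17014 probes and 9577 named genes, each gene read from its probe of highest mean. Models used lmFit and eBayes with an intensity trend, and p-values were adjusted by Benjamini-Hochberg over all genes with a threshold of 0.05. TAC against sham used an additive model of genotype and surgery (3 residual degrees of freedom), and the other comparisons used 4 group means (2). No array design is stated in the study's methods. The additive fit was tested on simulated data with independent noise on each array. Those data lack the differences between replicates that Tg TAC and WT TAC shared, so the test does not cover them.

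The members, lists and alternatives were chosen with earlier results of these data known. Named from each list were up to 4 genes with the largest absolute difference between TAC and sham, and for each member the genes with the highest Pearson correlation (5 for *Fhl1*, 2 for the others) among genes detected on all arrays with at least 50% of its SD. *Ttn*, *Actn2*, *Nppb* and the values of *Flnc* were added after their values were seen.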

Additional observations from a re-analysis of the deposited data

Results flagged for a closer look

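*Fhl2* differed in direction between the genotype labels. Both Tg TAC arrays lay above Tg Sham, by 0.10 and 0.08, and both WT TAC arrays lay below WT Sham, by -0.05 and -0.20, so that the difference between TAC and sham in Tg less that in WT was 0.22 ± 0.23 SE (limma adjusted p = 1 for the interaction). On its second probe all 4 TAC arrays lay below the sham of their label, with -0.10 and -0.18 in Tg and -0.25 and -0.40 in WT. No group held the 4 arrays needed to test a single array as an outlier.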

How the results depend on the processing

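In the models of genotype and surgery without a block, no member was called over all 6 arrays, and limma called 0 genes in each of the 5 comparisons (88 to 697 genes at an unadjusted p under 0.05). The members were recomputed in 462 alternative values, of which 4 were called in the same direction and 76 changed sign, 57 of them in fits that left out libraries. Of the 76, *Ankrd1* and *Xirp2* for TAC against sham without both TAC replicate 2 libraries were also called. *Myot*, TAC against sham, kept its sign in all 15 alternatives. The cause of the changes was not tested. These totals count the TAC against sham values of the replicate block and of the fit without both TAC replicate 2 libraries separately, though they are the same.

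With both TAC replicate 2 libraries left out, 1165 genes were called for TAC against sham. *Fhl1* was 1.25 and *Myot* -1.42, and signs changed for *Fhl2* (0.03), *Ankrd1* (0.35), *Ankrd23* (0.15), *Csrp3* (0.11) and *Xirp2* (0.65). For every member of this fit, surgery and the step of the *Kdm3a* probe cannot be told apart. The other comparisons then have no test, and signs changed for *Ankrd1* (0.30) and *Ankrd23* (0.18) in WT, for *Ankrd1* (0.39), *Ankrd23* (0.13), *Csrp3* (0.10) and *Xirp2* (0.68) in Tg, for *Ankrd23* (0.40) in Tg TAC against WT TAC, and for the interaction of *Ankrd1* (0.09) and *Xirp2* (0.06).

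The labels do not say that replicate numbers pair the mice, and only 2 pairs exist. The differences between replicates 1 and 2 of Tg TAC and of WT TAC correlated at r = 0.542 over 9577 genes. The replicate block gave 93 called genes for TAC against sham, 57 for Tg TAC against Tg Sham and 7 for Tg TAC against WT TAC. In TAC against sham with the replicate block, *Fhl1* was 1.25 (limma adjusted p = 0.03), and signs changed for *Fhl2* (0.03), *Ankrd1* (0.35), *Ankrd23* (0.15), *Csrp3* (0.11) and *Xirp2* (0.65). Both shams carry replicate number 1, so with the block these TAC against sham values come from the replicate 1 arrays alone. They equal those without both TAC replicate 2 libraries by design and are not a second check. In WT the block gave 0.42 for *Ankrd1* and 0.42 for *Ankrd23*. In Tg it gave 1.47 for *Fhl1* (adjusted p = 0.02), 0.28 for *Ankrd1*, 0.08 for *Csrp3* and 0.39 for *Xirp2*.

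Without the 2 libraries that went against the *Kdm3a* probe, WT TAC and WT Sham keep 1 array each and Tg has no sham. Then 2 genes were called for Tg TAC against WT TAC. *Fhl1* was -0.21 for TAC against sham and -0.21 in WT, which are the same contrast, *Csrp3* was -0.11 and *Xirp2* -0.14 in WT, and *Fhl2* was 0.03 and *Ankrd23* 0.38 for Tg TAC against WT TAC. Median scaling changed the sign of *Csrp3* in WT (-0.10), in Tg TAC against WT TAC (-0.02) and in the interaction (0.02), and of *Xirp2* in Tg TAC against WT TAC (-0.13). The mean of the detected probes changed it for *Fhl2* in Tg (-0.02), for *Fhl2* (0.02), *Csrp3* (-0.04) and *Xirp2* (-0.15) in Tg TAC against WT TAC, and for the interaction of *Ankrd1* (0.04). The methods' t-test called 699 genes unadjusted and 0 after Benjamini-Hochberg for Tg TAC against WT TAC.

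Leaving out each array in turn called 0 to 4 genes for TAC against sham (4 without WT TAC replicate 2), 0 to 1 in WT, 0 to 1 in Tg, 0 to 2 for Tg TAC against WT TAC (2 without WT TAC replicate 1) and 0 to 1 for the interaction. For TAC against sham the range was 0.36 to 0.94 for *Fhl1*, -0.13 to 0.09 for *Fhl2*, -0.31 to 0.16 for *Ankrd1*, -0.93 to -0.11 for *Ankrd23*, -1.90 to -0.88 for *Myot*, -0.09 to 0.05 for *Csrp3* and -0.40 to 0.43 for *Xirp2*. In WT it was -0.21 to 1.05 for *Fhl1*, -0.33 to 0.30 for *Ankrd1*, -0.76 to 0.18 for *Ankrd23*, -0.11 to 0.13 for *Csrp3* and -0.14 to 0.62 for *Xirp2*. In Tg it was 0.27 to 1.45 for *Fhl1*, -0.70 to 0.39 for *Ankrd1*, -1.78 to 0.13 for *Ankrd23*, -0.22 to 0.10 for *Csrp3* and -1.27 to 0.68 for *Xirp2*. For Tg TAC against WT TAC it was -0.02 to 1.24 for *Fhl1*, -0.13 to 0.03 for *Fhl2*, -0.35 to 0.74 for *Ankrd1*, -1.04 to 0.87 for *Ankrd23*, -0.14 to 0.18 for *Csrp3* and -0.92 to 1.03 for *Xirp2*. For the interaction it was -0.19 to 1.07 for *Fhl1*, -0.69 to 0.41 for *Ankrd1*, -1.49 to 0.42 for *Ankrd23*, -0.23 to 0.09 for *Csrp3* and -1.51 to 0.44 for *Xirp2*. The TAC against sham median ran from -0.17 to 0.03 for the Z-disc list, from 0.01 to 0.10 for the costamere list and from -0.44 to 0.20 for the load-responsive list. Both with the replicate block and without both TAC replicate 2 libraries it was 0.07 for the Z-disc list and 0.47 for the load-responsive list, and the mean of the detected probes gave -0.33 for the load-responsive list. Where a TAC group kept 1 array, that array was assumed to vary like the others.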
